A study of Mus musculus with 4 samples.

Results

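The genes of the proteasome, taken as the protein-coding genes whose symbols start with Psma, Psmb, Psmc, Psmd, Psme, Psmf or Psmg, were followed in B cells sorted from the spleens of mice with λ-MYC lymphoma. The inducible immunoproteasome genes Psmb8, Psmb9 and Psmb10 were left out of this set and are described beside it. By this rule 47 of the 34866 genes in the table were members, and the choice used gene names alone, with no expression value. Of the 47, 45 had at least 1 TPM (transcripts per 1000000) in 2 or more of the 4 libraries and were tested. The mice carried λ-MYC+/TG, R26tdTom+/ki and a knock-in Cre allele, and are called λ-MYC Tom+/ki mice. The λ-MYC transgene drives human MYC in B cells through elements of an immunoglobulin light chain locus. The Cre recombinase switches on the Tomato reporter for good, so Tom+ cells have expressed Cre at some time and need not express it when sorted. Tom- cells carried the same alleles. Spleen cells of 2 sick mice with IgM+Tom+ tumors, called tumors #1 and #2, were sorted into B220+IgM+Tom+ and B220+IgM+Tom- cells, and each fraction gave 1 library. The sources used here do not give the age or treatment of these mice, and no mouse without the transgene was sequenced among these libraries. The design asks how tumor cells with a history of Cre expression differ from Tom- cells of the same mouse.

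The proteasome is the protease that degrades ubiquitin-tagged proteins in the cytosol and nucleus. Its 20S core is a barrel of outer alpha rings, which gate the entry, and inner beta rings, which hold the active sites. The 19S particle caps the core, binds ubiquitin chains, removes them, and unfolds the substrate with a ring of AAA ATPases. Dedicated chaperones assemble both parts, and alternative caps of the PA28 and PA200 kind can replace the 19S particle. Interferon can induce Psmb8, Psmb9 and Psmb10, whose products replace the catalytic beta subunits and alter the peptides made for antigen presentation. When proteasome activity is short, the factor Nrf1, encoded by Nfe2l1, raises the transcription of proteasome genes together.

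The values are TPM that the authors obtained with Salmon. TPM keeps no read number, so the depth of each library is unknown and no counting interval can be given. All 8 B cell marker genes were tested, with a summed level of 2295 to 2454 TPM in the libraries of tumor #1 and of 5072 to 5948 TPM in those of tumor #2. The 6 T cell markers summed to at most 8.29 TPM, the 7 myeloid markers to at most 8.77 TPM and the 4 NK cell markers to at most 0.592 TPM, and Cd14, Ncr1, Klrk1 and Nkg7 were listed at 0 in all 4 libraries. Of the 6 erythroid markers, 3 were listed at 0 throughout, Hba-a1 and Hba-a2 among them, and the list summed to 17.6 to 21.5 TPM in tumor #1 and to 0.619 to 0.967 TPM in tumor #2. Most of the sum in tumor #1 was Hbb-bs, at 18.8 TPM in Tom- and 16.1 TPM in Tom+ cells. In tumor #2 Hbb-bs stood at 0 and 0.699 TPM. The 6 plasma cell markers summed to 30.9, 35.1 and 34.7 TPM in the first 3 libraries and to 261 TPM in tumor #2 Tom+ cells, where Jchain stood at 209 TPM. Irf4 and Xbp1 were also highest there, at 29.4 and 21.2 TPM, while Sdc1, Prdm1 and Tnfrsf17 stood at 0.428, 0.570 and 0.390 TPM. Sdc1 and Tnfrsf17 were highest in tumor #1 Tom- cells, at 1.95 and 0.778 TPM. Mitochondrial genes took 6.61% and 8.67% of the TPM of tumor #1 and 14.4% and 15.6% of that of tumor #2. Immunoglobulin genes took 9.76% in tumor #2 Tom+ cells and 5.35% to 6.28% in the other libraries.

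The proteasome genes were among the well expressed genes of these cells. Their summed level was 6334 TPM in tumor #1 Tom- cells, 6596 TPM in tumor #1 Tom+ cells, 6074 TPM in tumor #2 Tom- cells and 5337 TPM in tumor #2 Tom+ cells, which is 0.534% to 0.660% of all TPM. The highest sum was thus in the Tom+ cells of tumor #1 and the lowest in the Tom+ cells of tumor #2. The median member stood at percentile 91.0 and 90.9 of the tested protein-coding genes in tumor #1 Tom- and Tom+ cells, and at percentile 88.5 and 87.3 in tumor #2. Levels of the 45 tested genes kept nearly the same order in all libraries, with Pearson's r of 0.934 to 0.991 between pairs of libraries on the log2(TPM + 1) scale. The points of this correlation are genes of the same libraries and no replicates, so it is a description only.

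**Figure D1:**
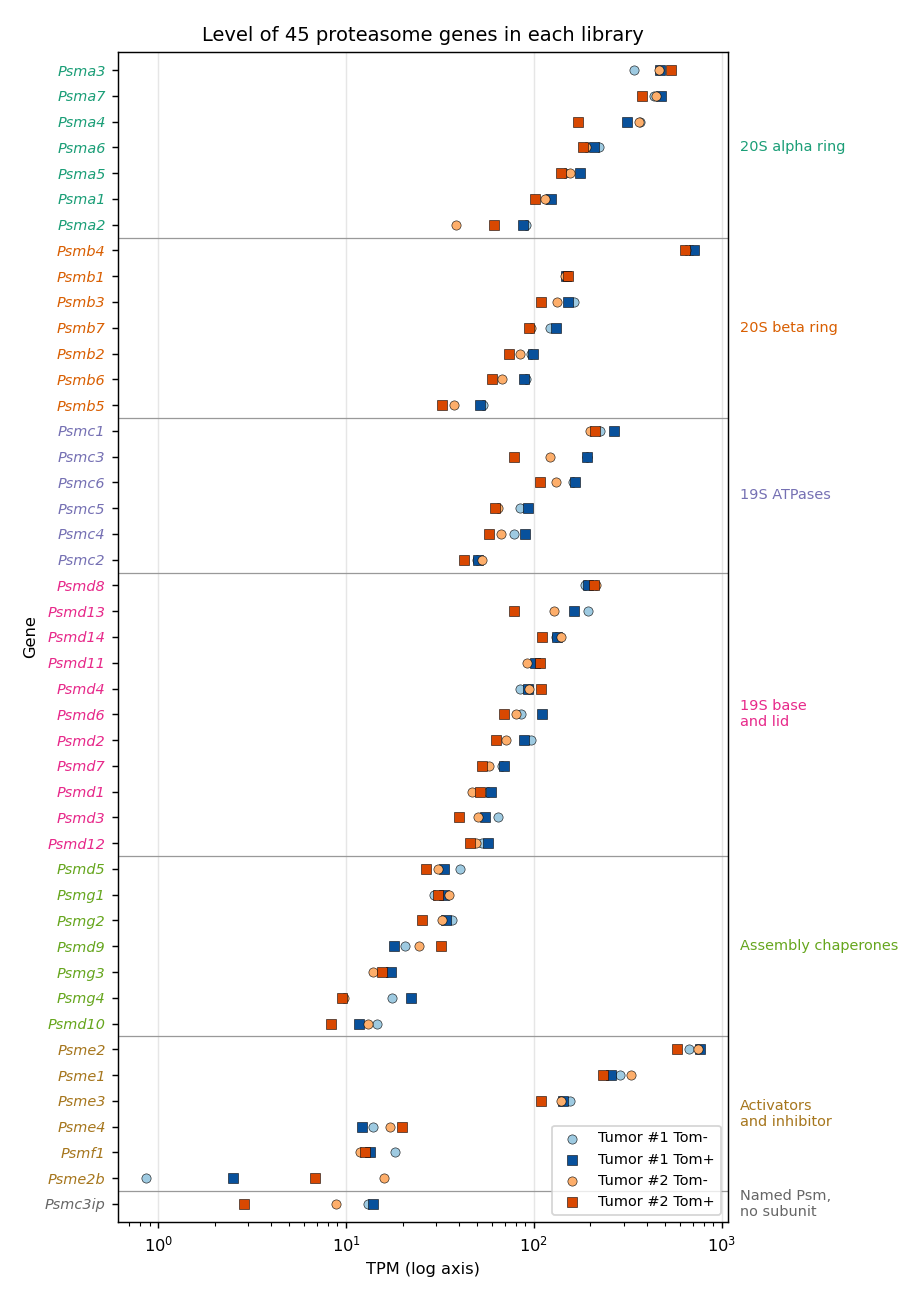
Level of each of the 45 tested proteasome genes in TPM (x axis, log scale) in the 4 libraries, with 1 point per library and genes grouped by role and ordered by mean level within a role. Genes next to each other in the order often overlap, and the points of Psma2, Psma4, Psmc3, Psmc3ip, Psmd13, Psme2b and Psmg4 spread over more than 1 log2 unit on the log2(TPM + 1) scale.

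The alpha ring, whose subunits gate the core, summed to 1717, 1852, 1772 and 1572 TPM in tumor #1 Tom-, tumor #1 Tom+, tumor #2 Tom- and tumor #2 Tom+ cells, and later values are given in this order of libraries. Within the ring the mean level differed 6.53-fold between the highest and the lowest tested gene, although every particle holds each of these subunits in equal number. Psma3 (ENSMUSG00000060073, chr12:70974621-70996347 on GRCm38, plus strand) had the highest mean, at 342, 468, 465 and 538 TPM. Reads of Psma3 could not always be told from those of its processed pseudogene Gm13835, which holds runs of 60 bases, the read length, that match 15.0% of such runs in Psma3, and which stood at 145, 166, 157 and 157 TPM. Psma7 stood at 434, 475, 449 and 376 TPM, above Psma3 in both libraries of tumor #1. Psma2 (chr13:14613240-14674236) was the lowest, at 91.0, 87.0, 38.4 and 61.2 TPM. The other alpha genes lay between, with Psma1 at 102 to 124 TPM, Psma5 at 140 to 175 TPM and Psma6 at 183 to 223 TPM. Psma8, the alpha subunit of the testis proteasome, was at 0, 0, 0.110 and 0 TPM and was not tested.

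The beta ring summed to 1367, 1378, 1209 and 1155 TPM. Its levels differed 15.3-fold between genes, the widest range within either ring. Psmb4, a structural subunit without protease activity (chr3:94884093-94886961), was the highest at 691, 708, 642 and 635 TPM. Psmb1, also structural, stood at 149, 149, 147 and 151 TPM. Psmb2, another structural subunit, ranged from 73.7 to 98.5 TPM. The log2 range of Psmb1 over the 4 libraries, 0.038, was the narrowest of the 45 genes. In each of the 4 libraries the 3 catalytic genes stood below the structural Psmb4, Psmb1 and Psmb3. The structural Psmb2 stood below the catalytic Psmb7 and above Psmb6 and Psmb5 in each library. Psmb7, the trypsin-like site, stood at 122, 132, 97.0 and 93.9 TPM. Psmb6, the caspase-like site (ENSMUSG00000018286, chr11:70525367-70527858), stood at 90.3, 88.6, 68.0 and 60.1 TPM. Psmb5, the chymotrypsin-like site and the main target of bortezomib (ENSMUSG00000022193, chr14:54614119-54618022), was the lowest tested beta gene at 53.6, 51.5, 37.4 and 32.3 TPM. Of the runs of 60 bases in Psmb5, 41.2% are also in its processed pseudogene Gm3375, listed at 0 TPM in all 4 libraries. Both libraries of tumor #2 were below both of tumor #1 for each of the 3 catalytic genes, as for 23.7% of all genes tested. Psmb11, the thymic beta subunit, was at 0.0796, 0.215, 0.287 and 0.347 TPM and was not tested.

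The 6 AAA ATPases of the 19S base summed to 791, 858, 635 and 560 TPM. Psmc1 stood at 226, 268, 198 and 211 TPM. Psmc3 (ENSMUSG00000002102, chr2:91054009-91066369) stood at 192, 192, 122 and 78.3 TPM, so the fractions of tumor #1 were alike, and both fractions of tumor #2 were lower, the Tom+ cells most of all. Of the other ATPases, Psmc6 ranged from 108 to 166 TPM, Psmc5 from 62.3 to 92.9 TPM, Psmc4 from 58.0 to 89.2 TPM and Psmc2 from 42.5 to 52.8 TPM. The 11 other subunits of the 19S base and lid summed to 1128, 1126, 1025 and 937 TPM. Psmd8, a lid subunit, stood at 186, 195, 214 and 209 TPM. The scaffolds of the base, Psmd1 and Psmd2, ranged from 46.9 to 58.9 TPM and from 62.9 to 96.4 TPM. Psmd4, a ubiquitin receptor, stood at 84.7, 93.1, 94.6 and 110 TPM, with the lowest value in tumor #1 Tom- cells. The remaining lid genes Psmd6, Psmd7, Psmd11 and Psmd12 lay between 45.6 TPM, the lowest value of Psmd12, and 111 TPM, the highest value of Psmd6. Psmd14, the deubiquitinase that removes ubiquitin chains before the substrate enters the core, stood at 131, 133, 140 and 110 TPM. Psmd13, a lid subunit (ENSMUSG00000025487, chr7:140881968-140898643), stood at 195, 164, 128 and 78.2 TPM. It was lower in Tom+ than in Tom- cells of each tumor and lower in tumor #2 than in tumor #1.

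The promoters of Psmb5, Psmb6 and Psmd13 are shown because these genes were lower in both libraries of tumor #2 under every scaling tried. So were 17 members in all and 17.3% of the 10066 genes tested in each scaling. A further reason is that these promoters differ in matches to the letters of a known control element. RefSeq windows on GRCm38.p6, from 250 bases before to 50 bases after the annotated start, were found for 39 of the 47 members, 42 windows in all, and none was found for Psma8, Psmb1, Psmb2, Psmb7, Psmc3, Psmd3, Psmd7 and Psmg2. Sequences run 5′ to 3′ along the gene, and capitals mark a match to TGACNNNGC, the core of the antioxidant response element through which Nrf1 acts. The window of Psmb5 is at chr14:54617946-54618245 on the minus strand, that of Psmb6 at chr11:70525107-70525406 on the plus strand and that of Psmd13 at chr7:140882144-140882443 on the plus strand.
Psmb5: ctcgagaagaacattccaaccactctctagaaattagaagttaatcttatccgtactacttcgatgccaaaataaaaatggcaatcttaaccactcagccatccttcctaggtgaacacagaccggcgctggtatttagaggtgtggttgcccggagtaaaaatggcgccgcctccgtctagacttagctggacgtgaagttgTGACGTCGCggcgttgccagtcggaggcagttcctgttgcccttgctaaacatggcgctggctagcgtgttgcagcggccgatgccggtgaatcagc
Psmb6: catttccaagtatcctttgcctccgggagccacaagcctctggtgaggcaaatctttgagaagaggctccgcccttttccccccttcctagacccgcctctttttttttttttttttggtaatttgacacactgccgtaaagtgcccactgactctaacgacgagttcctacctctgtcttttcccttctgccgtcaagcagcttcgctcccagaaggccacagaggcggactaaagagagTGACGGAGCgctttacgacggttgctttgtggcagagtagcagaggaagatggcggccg
Psmd13: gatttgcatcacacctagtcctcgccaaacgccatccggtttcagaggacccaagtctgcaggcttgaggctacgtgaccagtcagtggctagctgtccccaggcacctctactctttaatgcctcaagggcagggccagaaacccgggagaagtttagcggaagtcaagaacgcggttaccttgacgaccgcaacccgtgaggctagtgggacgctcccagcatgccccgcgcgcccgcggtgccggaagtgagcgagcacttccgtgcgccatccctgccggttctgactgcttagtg
The windows of Psmb5 and Psmb6 hold 1 match each and that of Psmd13 holds none. The Psmd13 window begins downstream of the GENCODE gene start given above, so sequence before that start was not searched. Both strands were searched, and matches to TGACNNNGC and to CCAAT, the letters bound by the NF-Y factor, were counted separately even where they could overlap. TGACNNNGC was in 6 of the 42 windows (14.3%), those of Psmb5, Psmb6, Psmc6, Psmd9, Psmd12 and Psme4, and in 12.4% of all 32851 windows of the same length. CCAAT was in 14 of the 42 (33.3%) and in 37.4% of all. The members' windows had a median GC content of 58.2% and a median of 19 CpG, against 52.7% and 7 for all windows. Of the 6 members with a TGACNNNGC match, 4 lay below in both libraries of tumor #2, as did 18 of the 32 tested members with a window and no match (23.7% of all genes). Psmd9 and Psme4, which hold a match, had a mean tumor difference above 0 in every scaling. A match to these letters is a description and no evidence of binding.

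The 7 assembly chaperones were expressed at a lower level, 176, 170, 160 and 149 TPM in sum. Psmd5, a chaperone of the 19S base, stood at 40.5, 33.4, 30.8 and 26.8 TPM. Psmg1, which pairs with Psmg2 in building the alpha ring, stood at 29.3, 33.1, 35.3 and 31.0 TPM. Psmg4, the partner of Psmg3 in the same step (chr13:34162964-34178173), stood at 17.6, 22.2, 9.78 and 9.47 TPM. The tumors did not overlap for Psmg4, as for 68.5% of all genes tested, counting either direction. Psmd9, a base chaperone, reached 32.2 TPM in tumor #2 Tom+ cells, the highest of its values, and 24.4 TPM in tumor #2 Tom- cells. Psmg2 ranged from 25.3 to 36.6 TPM and Psmg3 from 14.0 to 17.4 TPM. Psmd10, a base chaperone also known as gankyrin, stood at 14.6, 11.8, 13.0 and 8.33 TPM.

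The activators and the inhibitor Psmf1 summed to 1142, 1198, 1264 and 961 TPM. Most of this came from Psme1 and Psme2, which are induced by interferon. Psme2 (PA28 beta) stood at 668, 769, 750 and 580 TPM and had the highest mean of all members. Psme1 (PA28 alpha) stood at 286, 258, 329 and 233 TPM. Psme3, the nuclear PA28 gamma, stood at 155, 144, 139 and 109 TPM. Psme4, the PA200 activator, stood at 14.0 and 12.1 TPM in tumor #1 and was higher in both libraries of tumor #2. The inhibitor Psmf1 ranged from 11.8 to 18.3 TPM. Psme2b (chr11:48945354-48946190), a near-copy of Psme2, stood at 0.862, 2.51, 16.0 and 6.87 TPM. Of its runs of 60 bases, 64.8% are also in Psme2, so the split of reads between these genes is uncertain. Psmc3ip, whose product acts in meiotic recombination and is no proteasome subunit despite its symbol, stood at 13.1, 13.9, 8.80 and 2.85 TPM. It shares 16.9% of its runs with Mlx on the opposite strand, and whether the libraries keep strand was not stated.

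**Figure D2:**
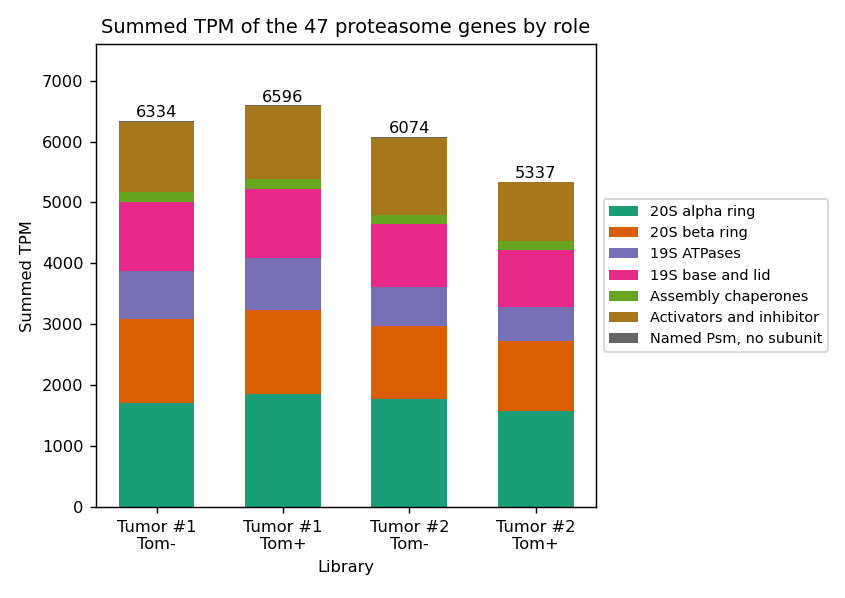
Summed TPM (y axis) of the 47 proteasome genes in each of the 4 libraries, stacked by role, with the total above each bar. The totals run from 5337 in tumor #2 Tom+ cells to 6596 in tumor #1 Tom+ cells.

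Across Tom+ and Tom- cells, no proteasome gene passed the test. In limma, fitted with a tumor term, 0 of 11339 genes had an adjusted p-value below 0.05 (0%), with 0.936 as the smallest value. Before adjustment 530 genes (4.67%) had a p-value below 0.05, of which 231 were higher in Tom+ cells (2.04%) and 299 lower (2.64%). Of the 45 members 0 passed even this limit. With 1 pair of libraries from each of 2 mice the fit has 1 residual degree of freedom, and an exact permutation of the pairs could not give a p-value below 0.5. A p-value that misses the threshold here does not show that the fractions were alike.

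The 3 members with the smallest unadjusted p-values were Psmd13, Psma3 and Psma4. Psmd13 had a log2 fold change on the log2(TPM + 1) scale of −0.48 ± 0.18 (SE, unadjusted p-value from limma 0.068), with −0.25 in tumor #1 and −0.70 in tumor #2. Here and below, SE is the moderated SE of limma, which borrows spread from all genes. It is not the spread between the 2 tumors alone. Psma4, an alpha subunit (chr9:54950790-54958030), stood at 365, 314, 362 and 172 TPM. Its log2 fold change was −0.64 ± 0.26 (SE, unadjusted p-value from limma 0.086), and most of it came from tumor #2, with −1.07 against −0.22 in tumor #1. Psma3 was higher in Tom+ cells of both tumors, with a log2 fold change of 0.33 ± 0.13 (SE, unadjusted p-value from limma 0.080) and values of 0.45 and 0.21 in tumors #1 and #2. With the 3 pseudogene copies that share runs with Psma3 added to it, the value was 0.27. The adjusted p-value of each of these 3 genes was 0.936. Under the 4 other scalings of the libraries the unadjusted p-value from limma was 0.023 to 0.048 for Psma3, and with protein-coding genes only it was 0.042 for Psma4 and 0.035 for Psmd13, while 0 members passed after adjustment. In these scalings 4.5% to 5.25% of all genes had an unadjusted p-value below 0.05.

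In each role the members with the largest Tom difference were described beside these. Psmb3, a structural beta subunit, stood at 164, 151, 133 and 109 TPM, with −0.20 ± 0.13, and Psmb5 had −0.13 ± 0.15 (log2 fold change ± SE). Among the ATPases, Psmc3 had −0.31 ± 0.21, with 192 TPM in both fractions of tumor #1 and a log2 fold change of −0.63 in tumor #2. Psmc1 had 0.17 ± 0.12, higher in Tom+ cells of both tumors. Psmd3, a lid subunit, stood at 64.7, 54.6, 50.2 and 39.9 TPM, with −0.28 ± 0.14. Psmd10 had −0.44 ± 0.19 and Psmd5 −0.23 ± 0.15, and both were lower in Tom+ cells of each tumor. Psme1 had −0.32 ± 0.15 and Psme3 −0.23 ± 0.14, also lower in each tumor.

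The direction of the Tom difference was opposite in the tumors for 26 of the 45 members, against 47.3% of all genes. Some of these differences were near 0, such as those of Psmb1, at −0.0089 in tumor #1 and 0.038 in tumor #2. In tumor #1, 25 of the 45 genes were higher in Tom+ cells, against 48.6% of all genes tested, and the median log2 fold change was 0.030. In tumor #2, 34 of the 45 were lower in Tom+ cells, against 56.6% of all genes, and the median was −0.18. The medians of all genes were −0.0029 and −0.057. Of the 45, 5 were higher in Tom+ cells of both tumors (21.6% of all genes), namely Psma3, Psmc1, Psmd1, Psmd4 and Psmg3. A further 14 were lower in both (29.5%), 20 were higher in tumor #1 and lower in tumor #2 (26.7%), and 6 the other way (20.6%). Whether the Tom difference itself differs between the tumors could not be tested, because an interaction leaves no residual degree of freedom.

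These counts moved with the scaling of the libraries. The median in tumor #2 stayed below 0 under all 4 other scalings, from −0.074 with immunoglobulin and mitochondrial genes left out to −0.14 with quantile normalization, and 28 or 30 of the 45 genes were then lower, against 46.1% to 51.5% of all genes. The median in tumor #1 turned to −0.0063 when the table was limited to protein-coding genes, with 20 of the 45 genes higher against 43.9% of all genes. Tumor #2 Tom+ cells also had the highest share of immunoglobulin genes and the high Jchain, as given above, and the part of these in the lower proteasome levels was not tested. In bulk samples fewer cells with a high level and a lower level in each cell cannot be told apart.

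**Figure D3:**
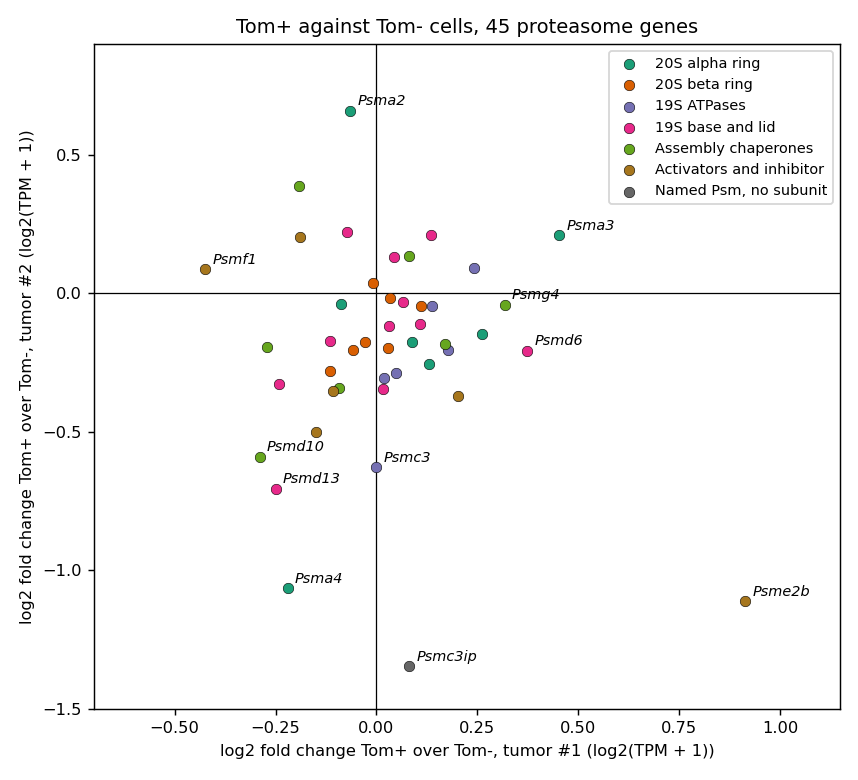
Log2 fold change of Tom+ over Tom- cells on the log2(TPM + 1) scale in tumor #1 (x axis) and in tumor #2 (y axis), with 1 point for each of the 45 genes, colored by role. Psma3 is higher in both tumors, Psma4 and Psmd13 are lower in both, and 20 genes lie in the lower right, higher in tumor #1 and lower in tumor #2.

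Most proteasome genes were lower in tumor #2 than in tumor #1. Both libraries of tumor #2 were below both of tumor #1 for 28 of the 45 members, against 23.7% of all 11339 genes. They were above for 5 members (Psmd4, Psmd8, Psmd9, Psme2b and Psme4, of which the mean difference of Psmd4 and Psmd8 changed sign with the scaling), against 44.8% of all genes, and 12 overlapped. The median difference of the members, tumor #2 minus tumor #1, was −0.27 on the log2(TPM + 1) scale, with −0.19 in Tom- cells and −0.34 in Tom+ cells. The median of all genes was 0.20, and that of the 3804 protein-coding genes that averaged 20 TPM or more was 0.045. The mean difference was below 0 for 36 of the 45 members (38.2% of all genes). Of those 3804 protein-coding genes, 1783 had a mean difference below 0. Both libraries of tumor #2 were below both of tumor #1 for 1244 of the 3804 and above for 1447. This compares 1 mouse with another, with the sorted fractions of a mouse in place of replicates, so tumor, mouse and any difference in handling cannot be told apart.

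**Figure D4:**
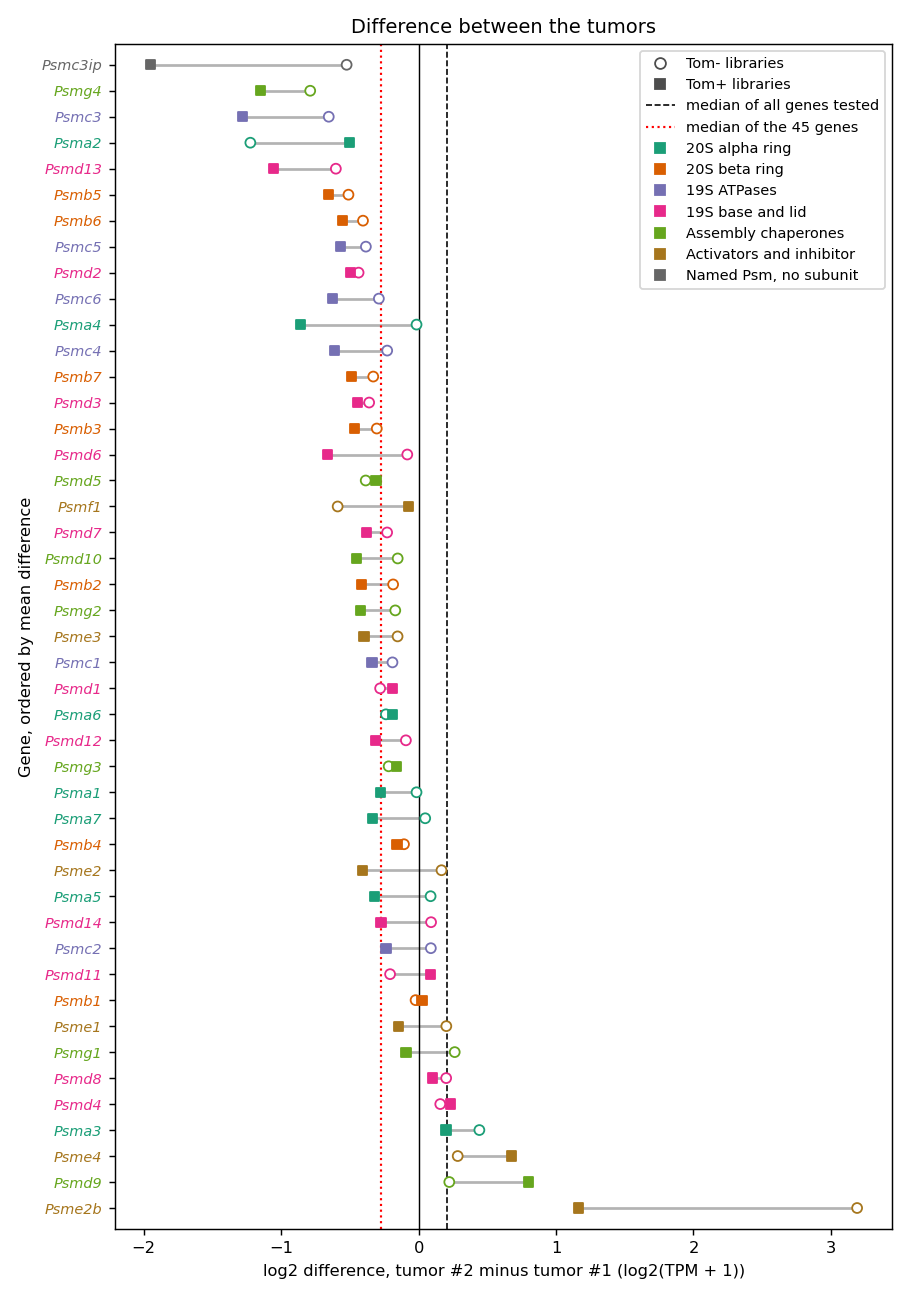
Log2 difference between the tumors, tumor #2 minus tumor #1 on the log2(TPM + 1) scale (x axis), for Tom- libraries (open circles) and Tom+ libraries (filled squares) of the 45 genes, colored by role. The dotted line at −0.27 is the median of the 45 genes and the dashed line at 0.20 the median of all genes tested.

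No member passed an adjusted p-value below 0.05 in the limma test of the tumor term, which 491 of the 11339 genes passed (4.33%). The smallest adjusted p-values among the members were 0.078 for Psmg4, 0.081 for Psmd13 and 0.084 for Psmc3. At an unadjusted p-value below 0.05, 9 members were lower in tumor #2 (11% of all genes) and 1 was higher (25.7%). Psmc3 had a difference of −0.97 ± 0.21 (SE), 1.92-fold lower mean TPM in tumor #2. Psmg4 had −0.97 ± 0.20, 2.07-fold lower, and Psmd13 had −0.83 ± 0.18, 1.74-fold lower. With protein-coding genes only, these 3 passed, at adjusted p-values from limma of 0.034 to 0.041, against 17.7% of all genes in that setting. Psma2 had −0.86 ± 0.24, with −1.22 in Tom- and −0.50 in Tom+ cells. Psmc3ip had −1.24 ± 0.44, and Psme2b had 2.18 ± 0.60, the widest difference of any member and in a gene of low and uncertain level.

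The catalytic genes differed by similar amounts, with −0.58 ± 0.15 for Psmb5, −0.48 ± 0.14 for Psmb6 and −0.41 ± 0.13 for Psmb7 (log2 ± SE). Their adjusted p-values from limma were 0.0963, 0.114 and 0.135. The structural Psmb4 had −0.13 ± 0.11 and Psmb1 had 0.0017 ± 0.12. The difference of Psmd14 was −0.091 ± 0.16, and the sign changed with the scaling for Psmb4, Psmb1 and Psmd14. By role, the median difference was −0.15 for the alpha ring (3 of 7 genes below in both libraries of tumor #2), −0.39 for the beta ring (6 of 7) and −0.44 for the ATPases (5 of 6). It was −0.24 for the other 19S subunits (7 of 11), −0.30 for the assembly chaperones (4 of 7) and −0.047 for the activators and the inhibitor (2 of 6). Of all genes tested, 23.7% lay below in both libraries of tumor #2, and these roles hold few genes each.

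The scaling of the libraries shifted the values of all genes, and the members are best read against that shift. With trimmed-mean scaling the members' median was −0.51 and that of all genes −0.0054. With quantile normalization these were −0.38 and −0.078, with protein-coding genes only −0.37 and 0.14, and with immunoglobulin and mitochondrial genes left out −0.12 and 0.35. The members' median was thus below that of all genes in each of the 5 scalings. With trimmed-mean scaling 38 members lay below in both libraries of tumor #2 (34.6% of all genes), with quantile normalization 29 (37.4%), with protein-coding genes only 33 (27.6%), and with immunoglobulin and mitochondrial genes left out 17 (17.8%). The same 17 members lay below in all 5 scalings, among them Psma2, Psmb5, Psmb6, Psmb7, Psmc3, Psmd13 and Psmg4, against 17.3% of the 10066 genes tested in each. The sign of the mean difference changed with the scaling for 13 members, among them Psma7, Psmb1, Psmb4, Psmd8, Psmd14, Psme1, Psme2 and Psmg1. The share of all genes with such a change is not given here. The mean difference was above 0 in every scaling for Psma3, Psmd9, Psme2b and Psme4.

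Other measures moved with the tumors as well. The 5 proliferation markers (Mki67, Top2a, Pcna, Ccnb1 and Cdk1) summed to 987, 1075, 554 and 536 TPM, although Mki67 alone stood at 65.1, 74.8, 65.5 and 56.4 TPM. The mitochondrial share was higher in tumor #2, and the erythroid sum, which in tumor #1 was mostly Hbb-bs, was lower, as given above. Their part in the difference of the proteasome genes was not tested. The library with the lowest level was tumor #2 Tom+ for 31 of the 45 members, against 26.2% of all genes. The log2 range over the libraries had a median of 0.51 for the members, 0.84 for all genes and 0.66 for the protein-coding genes that averaged 20 TPM or more.

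A factor common to all genes of a library leaves ratios within it unchanged, which does not hold for quantile normalization, and the ratios here are of deposited TPM. The summed TPM of the 19S particle over that of the 20S core was 0.622 and 0.614 in tumor #1 and 0.557 and 0.549 in tumor #2. The ATPases over the 20S core gave 0.257 and 0.266 against 0.213 and 0.205. The catalytic over the structural beta genes gave 0.242 and 0.246 against 0.201 and 0.192. In each of these 3 ratios the fractions of a tumor lay closer to each other than to either fraction of the other tumor. With 2 libraries against 2 an exact permutation test cannot go below 0.333, so none was run.

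**Figure D5:**
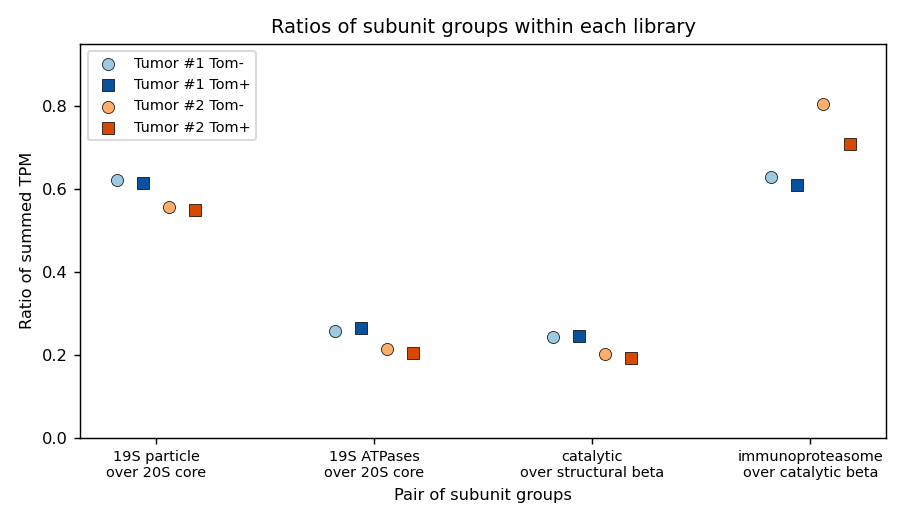
Ratios of summed TPM between groups of subunits (y axis) within each of the 4 libraries, for the 4 pairs of groups on the x axis. The first 3 ratios are lower in both libraries of tumor #2, and the ratio of immunoproteasome to catalytic beta genes is higher there, at 0.804 and 0.710 against 0.630 and 0.609.

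Of the immunoproteasome genes, Psmb8 stood above, Psmb9 below and Psmb10 well below the catalytic gene whose product each replaces. Psmb8 stood at 68.5, 66.9, 65.3 and 54.4 TPM, Psmb9 at 67.5, 69.1, 61.3 and 57.7 TPM, and Psmb10 at 31.5, 29.5, 36.1 and 20.2 TPM. Psmb8 was above Psmb5, the subunit it replaces, in all libraries, with ratios of 1.28, 1.30, 1.75 and 1.69. Psmb9 over Psmb6 gave 0.747, 0.780, 0.901 and 0.959. Psmb10 over Psmb7 gave 0.258, 0.224, 0.372 and 0.215, in which the tumors overlapped. The tumor differences of the 3 genes were −0.18 ± 0.15, −0.20 ± 0.14 and −0.17 ± 0.25 on the log2 scale (SE), and their Tom differences −0.15 ± 0.15, −0.027 ± 0.14 and −0.45 ± 0.25. None passed an adjusted or unadjusted p-value of 0.05 in limma in either comparison.

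Other genes of the ubiquitin-proteasome pathway were taken from fixed lists, and 0 of the 37 tested passed an unadjusted p-value below 0.05 for the Tom difference in limma, against 4.67% of all genes. For the tumor difference, 6 of the 37 passed an unadjusted p-value below 0.05, 5 of them higher in tumor #2 (25.7% of all genes) and 1 lower (11%). Chosen after their values were seen, these were Keap1, Mafg, Mafk, Ecpas and Ube2d3, which were higher, and the shuttle Ubqln1, which was lower at 37.8, 37.8, 19.2 and 16.2 TPM. The smallest adjusted p-value from limma among them was 0.0627, for Ubqln1. Among 6 further subunits and assembly factors, Adrm1, a ubiquitin receptor of the 19S particle, stood at 10.2, 14.6, 13.4 and 14.0 TPM. Ecpas, which binds the 26S proteasome, stood at 68.9, 95.2, 113 and 136 TPM, higher in Tom+ cells of both tumors, with a log2 fold change of 0.36 ± 0.14 (SE). Of 9 ubiquitin genes and ubiquitin-activating or conjugating enzymes, Ube2r2, a conjugating enzyme, stood at 33.5, 37.8, 36.5 and 41.4 TPM. Of 12 shuttles and deubiquitinases, Ube3c, a proteasome-bound ligase, stood at 10.5, 8.59, 11.9 and 8.93 TPM, and Nploc4, a cofactor of the unfoldase p97, at 31.5, 26.9, 27.6 and 22.7 TPM. Both were lower in Tom+ cells of each tumor.

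The genes that control proteasome transcription were measured at lower levels. Nfe2l1 stood at 18.5, 16.6, 15.2 and 14.3 TPM, and Nfe2l2, which encodes the related Nrf2, at 18.2, 16.2, 14.5 and 12.6 TPM. Their tumor differences were −0.23 ± 0.17 and −0.33 ± 0.17 on the log2 scale (SE), with adjusted p-values from limma of 0.384 and 0.253. Keap1, the repressor of Nrf2, stood at 7.23, 9.62, 13.1 and 25.2 TPM, higher in Tom+ cells of both tumors by 0.63 ± 0.23 (unadjusted p-value from limma 0.064). Nfyb, a subunit of NF-Y, stood at 28.1, 35.5, 22.7 and 40.0 TPM, also higher in Tom+ cells of both, by 0.56 ± 0.20 (unadjusted p-value from limma 0.061). Of the 10 tested genes of this list, 4 had higher values in both Tom+ libraries and 4 had lower values in both, against 21.6% and 29.5% of all genes.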

How the data were processed

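RNA of sorted Tom+ and Tom- splenic B cells (B220+IgM+) from each of 2 λ-MYC Tom+/ki mice was sequenced, 4 libraries in all. Per the study's methods, RNA was extracted with PicoPure and read as 60-base single reads. The authors made reads with CASAVA 1.8, trimmed them with Cutadapt, discarded reads under 30 bases and quantified the rest with Salmon 1.9 (version per the submitters' processing notes) on the mouse GRCm38 transcriptome. The deposited table holds TPM for 34866 genes, and each column sums to 1000000. TPM is relative, so a few abundant genes shift all others, and it keeps no depth. The authors tested counts with edgeR in a paired design, and counts were not used here.

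Gene type and position came from GENCODE M21, which holds 34652 of the 34866 identifiers. The 11339 genes that reached 1 TPM in 2 or more libraries entered the analysis. Values were put on the log2(TPM + 1) scale, on which changes of low genes come out too small. limma 3.58.1 in R 4.3.3 was fitted over all of them with Tom status and tumor as terms, a variance trend and Benjamini-Hochberg adjustment (1 residual and 2.21 prior degrees of freedom). The tumor was kept as a block because its fractions were sorted from 1 mouse. Across the 11339 genes, deviations from the group means of same-numbered libraries correlated at Pearson's r = 0.626. Python 3.11.15 with pandas 2.3.3, numpy 2.4.6 and matplotlib 3.10.9 was used for the remaining steps.

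The rule for the members used gene names alone, but it and the lists were chosen with earlier results of these data known. Named with values were, in each role, the 2 members of the highest mean level and the 2 with the largest Tom difference, those with an unadjusted p-value below 0.05 for it, the 6 with the largest tumor difference, Psmb5, Psmb6, Psmb7 and Psmd14, members below the filter, and Psmc3ip. Of other genes, Psmb8, Psmb9, Psmb10, Nfe2l1, Nfe2l2 and the 2 with the largest Tom difference in each list were named. A gene that this rule picks is not reported here. Other members named were chosen after their values were seen. Shared sequence was found as runs of 60 bases common to transcripts of a member and of another gene. Alternatives were the fit without the block, trimmed-mean scaling, quantile normalization, no filter, a filter at an average of 5 TPM, a pseudocount of 0.5 or 0.1, immunoglobulin and mitochondrial genes left out, protein-coding genes only, no variance trend, a robust prior, each tumor left out, each fraction alone and pseudogenes named Psm-ps added to the parent. Adding copies that share such runs was an alternative chosen after seeing the data.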

Additional observations from a re-analysis of the deposited data

Results flagged for a closer look

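For 26 of the 45 members, against 47.3% of all genes, and for the median of the members, Tom+ cells differed from Tom- cells in opposite directions in the tumors. Values follow for the 12 that the naming rule picks, and those of the other 14 ranged from −0.58 to 0.58. In each case the difference between the tumors was not tested, because an interaction leaves no residual degree of freedom. Values are the log2 fold change in tumor #2 minus that in tumor #1, on the log2(TPM + 1) scale. The median of the 45 genes gave −0.21, from 0.030 in tumor #1 and −0.18 in tumor #2. Psma2 gave 0.72, from −0.065 and 0.66, the only alpha ring gene among those named that was lower in tumor #1 and higher in tumor #2. Psma7 gave −0.38, from 0.13 and −0.25. The beta ring genes gave small values, with 0.047 for Psmb1, −0.050 for Psmb4 and −0.16 for Psmb7. The lid genes gave −0.36 for Psmd14 and −0.098 for Psmd8. The assembly chaperones gave −0.35 for Psmg1 and −0.36 for Psmg4. Psme2 gave −0.57, from 0.20 and −0.37. The values of the remaining pair were the widest, with −2.03 for Psme2b, which shares runs with Psme2, and −1.43 for Psmc3ip, from 0.081 and −1.35, which shares runs with Mlx. Under at least 1 other scaling, Psmb1, Psmb4 and Psmd14 changed sign in tumor #1, and Psmb4, Psmb7, Psmd8 and Psmg4 changed sign in tumor #2.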

How the results depend on the processing

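Of 137 summary values under alternatives, 119 stayed within 1.5 times (counts) or within 1 SD between tumors or fractions (0.146 or 0.109 log2 units, for medians and sums), and 18 moved further. Of 710 values of single genes, 3 newly passed the test and 67 changed sign or, with a tumor or a fraction left out, moved by over 1.5 times, and 0 members passed for the Tom difference after adjustment in any. Genes passing for the tumor difference (491) became 1 with a pseudocount of 0.1, 1 with no filter, 34 with a mean TPM of at least 5, 1 with quantile normalization, 1291 with immunoglobulin and mitochondrial genes left out, 1865 with protein-coding genes only and 275 with no variance trend, and the cause was not tested. Members passing became 3 with protein-coding genes only. Their median tumor difference became −0.51 with trimmed-mean scaling and −0.12 without immunoglobulin and mitochondrial genes. Members below in tumor #2 became 17 without those genes (17.8% of all genes), and members above became 2 with trimmed-mean scaling and 8 without those genes. The share of all genes above in these settings is not given here, so the counts above are no result about the members. The log2 ratio of summed TPM, tumor #2 over tumor #1, was −0.061 in Tom- cells, and −0.32 with trimmed-mean scaling, 0.059 without those genes and −0.20 with protein-coding genes only. In Tom+ cells it was −0.31, and −0.52 with trimmed-mean scaling and −0.11 without those genes. The median Tom log2 fold change of the members, −0.062, was −0.18 without tumor #1 and 0.030 without tumor #2, and 0.0023 without immunoglobulin and mitochondrial genes. Without the replicate block, 140 of the 11339 genes had an unadjusted p-value below 0.05 for the Tom difference in place of 530, 0 members did, and no call of a member changed. The unknown depth leaves the counting error of low genes, such as Psme2b, open to no estimate.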
